A study of Mus musculus with 6 samples.

Results

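The genes described here are 10 chemokine ligands made by bone cells, Ccl2, Ccl5, Ccl7, Ccl9, Cxcl1, Cxcl5, Cxcl10, Cxcl12, Cxcl16 and Cx3cl1. They were taken by symbol, 1 row each, from the 53797 rows of a table that compares MLO-Y4 cells exposed to low-intensity pulsed ultrasound (LIPUS) with Control cells. MLO-Y4 is a murine osteocyte-like cell line. The 3 LIPUS cultures received 20 min of pulsed-wave ultrasound at 1.5 MHz and 30 mW/cm2, and RNA was isolated 30 min after its end, while the 3 Control cultures were untreated. According to the methods, stimulated and Control wells shared a plate, in which the transducers under the Control wells were unplugged. All cultures were kept in α-MEM with fetal bovine serum.

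Chemokines are small secreted proteins that steer the migration of leukocytes and progenitor cells through receptors coupled to G proteins. Their names follow the spacing of the first cysteines (CC, CXC and CX3C), and many of their genes are switched on by NF-kB or interferon signalling. In bone they are known for drawing monocytes, the precursors of osteoclasts, and neutrophils to sites of remodelling or injury, and for holding blood-forming cells in the marrow.

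The values are FPKM (fragments per kilobase of exon, scaled to the mapped reads), which are given per length and allow levels of different genes to be compared. The table holds a single FPKM per group, pooled by the authors over the libraries of the group. From these values no SD can be given, and no difference below is set against the spread between cultures. The authors' own test results in the table were not used. The table gives no read total or count of a library, and the methods state only a nominal number of reads, the same for all samples. The study's text describes a Control culture that stood apart from the others. The pooled Control values below include this culture, and none could be computed without it. For the variation among Control cultures the paper names possible leakage of ultrasound into Control cells, which was not tested here. Differences are given as the log2 ratio of LIPUS over Control after adding a pseudocount of 1 to both FPKM, so that negative values are lower with LIPUS, and ratios of low genes are understated. A gene was called when this ratio passed 1.5-fold, which is 0.585 on the log2 scale. The ratio was read only for rows that reached 1 FPKM in either group, called expressed genes here, of which there were 11999. Their median log2 ratio was -0.000381.

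Regulatory sequence was read first for the members that RefSeq promoter windows (GRCm38.p6) cover, which were Ccl9, Cxcl1, Cxcl10, Cxcl12 and Cx3cl1. The other members, Ccl2, Ccl5, Ccl7, Cxcl5 and Cxcl16, were not searched, and these include all 3 genes called below. Within 250 bases upstream of the start site, 3 short patterns were searched on both strands. For the interferon-stimulated response element (ISRE) this was GAAA, any 2 bases and GAAA, for NF-kB it was GGGA, any 4 bases and CC, and for AP-1 it was TGANTCA. Of all 32851 such windows, 2.98% held the ISRE pattern, 17.6% the NF-kB pattern and 6.75% the AP-1 pattern. The stretches below are shown because Cxcl10 held all 3 patterns and Cxcl1 held NF-kB matches that lie side by side. Capitals mark the matched bases.
Cxcl10: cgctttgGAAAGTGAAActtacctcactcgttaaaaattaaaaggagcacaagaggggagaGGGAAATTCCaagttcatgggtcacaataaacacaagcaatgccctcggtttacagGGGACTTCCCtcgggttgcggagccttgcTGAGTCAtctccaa
Cxcl1: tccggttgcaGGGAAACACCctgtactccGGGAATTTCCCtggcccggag

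The Cxcl10 stretch lies at chr5:92348950-92349109 on the minus strand and covers bases 220 to 61 upstream of the start. Its matches are, in order, ISRE, NF-kB, NF-kB and AP-1, and the second NF-kB match reads as the pattern on both strands. The Cxcl1 stretch lies at chr5:90891145-90891194 on the plus strand, 100 to 51 bases upstream. Its GGGAATTTCCC holds 2 overlapping matches, 1 on either strand. Of the other members searched, Ccl9 held an AP-1 match (TGAATCA, starting 53 bases upstream), and none of the patterns was found in the Cxcl12 and Cx3cl1 windows. These matches describe the letters of the sequence and do not show binding.

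Stability of many chemokine mRNAs is governed by AU-rich elements in the 3′ UTR, whose core is the pentamer ATTTA. By the GENCODE M21 models of GRCm38, 9 of the 10 chemokine transcripts held the pentamer, against 66.2% of the 10649 expressed protein-coding genes with a 3′ UTR. The exception was Ccl5, whose 3′ UTR of 199 bases held none. Cxcl1 was the densest, with 7 pentamers in 592 bases (11.8 per kb), while the median of the expressed genes was 1.2 per kb. At least 5 per kb were found in 6.91% of the expressed genes and, among the chemokines, in Cxcl1 alone. The longer form, in which the pentamer has TT on either side, occurred in Cxcl1 and in Cx3cl1, and in 7.38% of the expressed genes. Cxcl1 held 2 copies and Cx3cl1 held 1. For each gene a stretch with 1 copy is shown, with the pentamers in capitals, Cxcl1 at chr5:90892606-90892635 and Cx3cl1 at chr8:94780849-94780878, both on the plus strand.
Cxcl1: gtcctATTTATTTAtgtATTTATTTAttcc
Cx3cl1: ccagtgaacaattATTTAttggattcccag

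**Figure D1:**
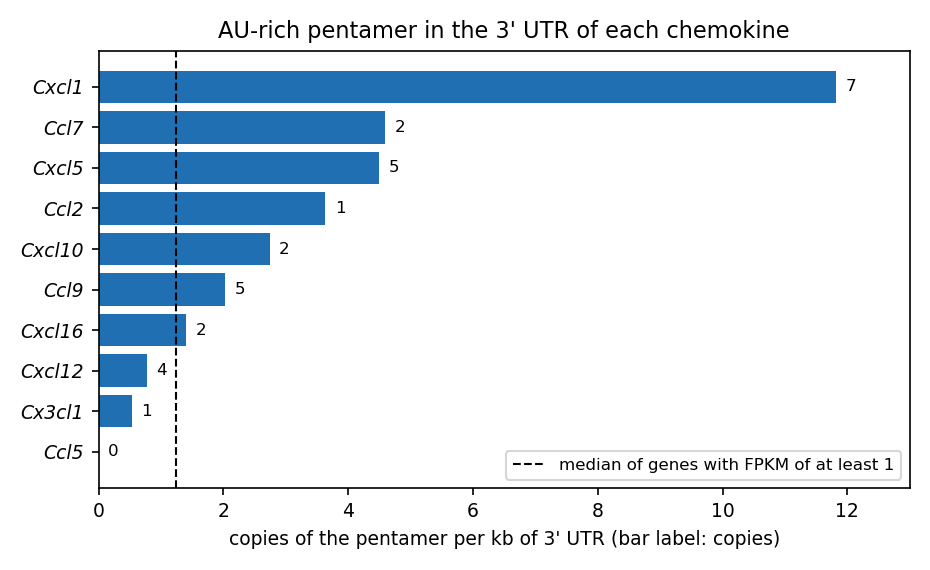
Copies of the pentamer per kb of 3′ UTR (x axis) for each of the 10 chemokine genes (y axis), with the number of copies beside each bar and the median of expressed genes, 1.2 per kb, as a dashed line. Cxcl1 reaches 11.8 per kb and Ccl5 has no copy.

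Of the 10 chemokines, 9 were expressed by this definition, and 8 carried the status OK of Cuffdiff, which marks genes deep enough for its test. Cxcl16 and Cxcl12 carried NOTEST. Among the 9 genes, 3 were lower with LIPUS by more than 1.5-fold (Ccl5, Ccl7 and Ccl2) and 0 were higher, whereas 6.79% of all expressed genes were lower and 6.7% higher past this limit. Over the 8145 genes with status OK, 3.97% were lower and 4.09% higher. At a laxer limit of 0.32 on the log2 scale, 6 chemokines were lower and 1 was higher, against 16.3% and 15.8% of all expressed genes, and at 2-fold 2 were lower and 0 higher, against 2.08% and 2.16%. The median log2 ratio of the 9 chemokines was -0.49. By sign alone, 7 of them were lower and 2 were higher, while 50% of all expressed genes had a negative sign. The 7 include Cxcl16, which passed the floor only through Control, the group in which it was higher. The signs were the same under each scaling tried.

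The FPKM of all 10 chemokines summed to 303.9 in Control cells and to 193.7 in LIPUS-treated cells, a log2 ratio of -0.65 between the sums. Ccl9 and Ccl5 together made up 64.1% of this sum in Control and 55.0% in LIPUS. The CC ligands accounted for most of the gap, with summed FPKM of 232.6 and 125.9, while the CXC ligands summed to 48.4 and 43.6. In Control cells the order of levels was Ccl9, Ccl5, Ccl2, Cx3cl1, Cxcl1, Cxcl5, Ccl7, Cxcl10 and Cxcl16. In LIPUS-treated cells Ccl9 and Ccl5 were still on top, but Ccl2 had moved behind Cx3cl1, Cxcl5 and Cxcl1, and Ccl7 behind Cxcl10. Without a spread it cannot be said which neighbours in these orders differ.

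**Figure D2:**
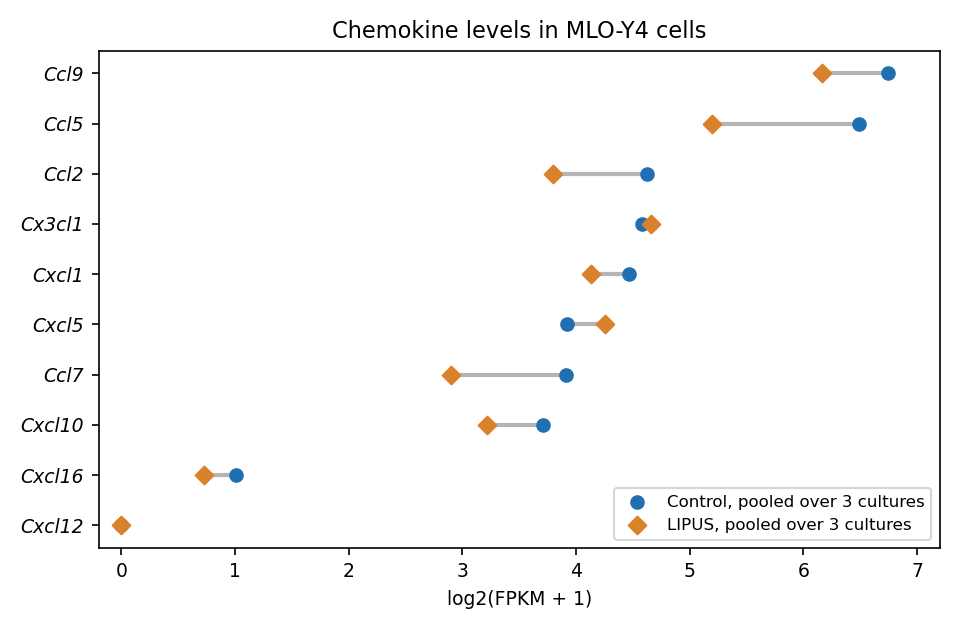
Level of each chemokine as log2(FPKM + 1) on the x axis, with genes on the y axis ordered by their Control level. Circles stand for Control and diamonds for LIPUS, each 1 value pooled over 3 cultures, so no error bars can be drawn. Ccl5, Ccl7 and Ccl2 show the widest gaps, Cx3cl1 and Cxcl5 lie to the right of Control, and Cxcl12 is at 0 in both groups.

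The ligands that draw monocytes through Ccr2 and Ccr1 had lower values in the LIPUS group. Ccl2, the main monocyte chemoattractant, had an FPKM of 23.7 in Control and 12.9 in LIPUS (log2 ratio -0.83). Ccl7, a close relative of Ccl2 that also acts on Ccr2, had 14.1 and 6.48 (-1.01). In these data, the log2 ratio of Ccl7 was among the lowest 2.04% of the expressed genes and that of Ccl2 among the lowest 3.33%. The genes are neighbours on chromosome 11 of GRCm38, with Ccl2 from 82035571 to 82037453 and Ccl7 from 82045712 to 82047525, both on the plus strand with 3 exons in the model used. Ccl9, a Ccr1 ligand made by osteoclasts and myeloid cells, was the most abundant chemokine of the list, above 92.6% of the expressed genes in Control. Its FPKM was 106.1 in Control and 70.8 in LIPUS (log2 ratio -0.576), which stopped just short of the limit. With group values scaled to equal sums its log2 ratio was -0.62, past the limit. Ccl9 lies on chromosome 11 from 83572919 to 83578636 on the minus strand.

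Among interferon-inducible ligands, Ccl5 (RANTES), which attracts T cells and monocytes through receptors that include Ccr1, showed the largest difference of the 10 genes. Its FPKM was 88.7 in Control and 35.6 in LIPUS, 2.49-fold lower (log2 ratio -1.29). Only 1.04% of the expressed genes had a ratio as low or lower. Ccl5 lies on chromosome 11 from 83525778 to 83530518 on the minus strand, on the same strand as Ccl9, and the level of Ccl5 relative to Ccl9 went from 0.836 in Control to 0.503 in LIPUS. Cxcl10, a Cxcr3 ligand for activated T cells and the gene with the ISRE match above, had 12.1 in Control and 8.32 in LIPUS. Its log2 ratio of -0.49 did not pass the limit, and 9.08% of the expressed genes had a ratio as low or lower. Cxcl10 lies on chromosome 5 from 92346638 to 92348889 on the minus strand, inside Art3 on the opposite strand, which is listed at 0 in both groups.

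The neutrophil attractants, which signal through Cxcr2, differed in opposite directions and less than 1.5-fold. Cxcl1, the gene with the dense AU-rich stretch above, had an FPKM of 21.1 in Control and 16.5 in LIPUS (log2 ratio -0.33). Cxcl5 had 14.2 in Control and 18.1 in LIPUS (0.33). The sums of the pair were 35.3 and 34.6, so that their combined level was nearly the same in both groups. Both lie in a chemokine cluster of chromosome 5, Cxcl5 from 90759360 to 90761624 and Cxcl1 from 90891241 to 90893115, on the plus strand.

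Cx3cl1 (fractalkine) and Cxcl16 are made as membrane-bound proteins with a mucin-like stalk and are released by proteases. Cx3cl1 had an FPKM of 23.0 in Control and 24.2 in LIPUS (log2 ratio 0.07), the smallest difference of the 9 genes. Cxcl16, the ligand of Cxcr6, was barely detected, with 1.01 in Control and 0.654 in LIPUS (-0.28). Without a pseudocount its log2 ratio was -0.63, past the limit, although both levels were near the floor and only that of Control reached it. Cxcl12, which retains blood-forming cells in the marrow through Cxcr4, was listed at 0 in both groups. A 0 in such a table can be a failed estimate, and no ratio is given for it.

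**Figure D3:**
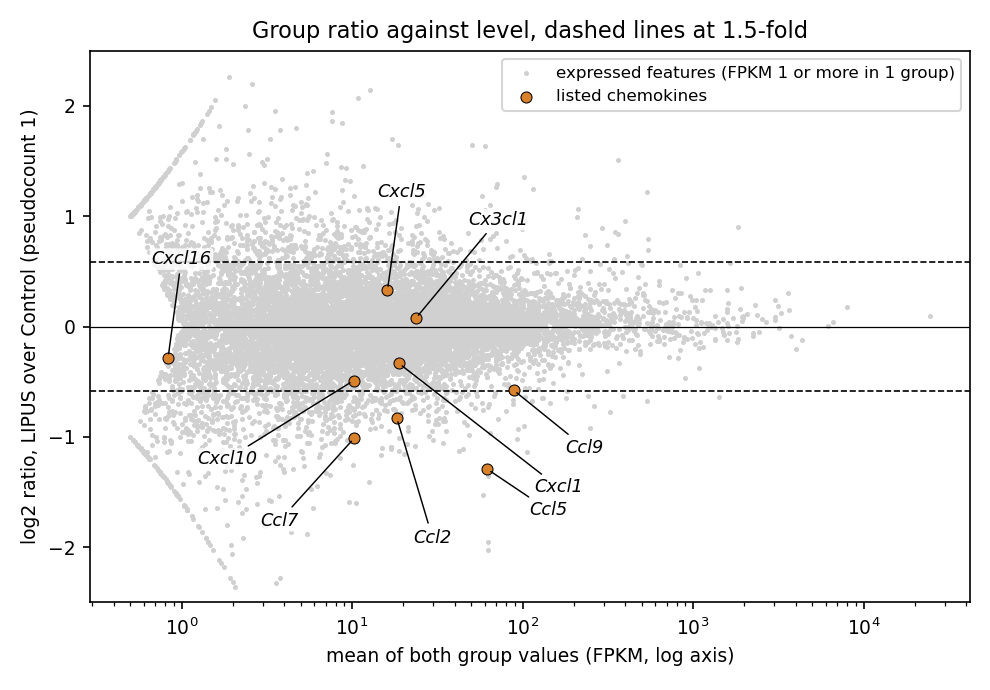
Log2 ratio of LIPUS over Control (y axis, pseudocount 1) against the mean FPKM of both groups (x axis, log scale) for the 11999 expressed genes (grey) and the 9 chemokines among them (orange). Dashed lines mark 1.5-fold, and 31 genes beyond 2.5 on the y axis are not drawn. Ccl5, Ccl7 and Ccl2 lie below the lower line, with Ccl9 just above it.

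Sharing of reads between relatives was checked on the transcript models. Of the distinct 50-base stretches of each transcript, 0 occurred in a transcript of another gene for 8 of the chemokines, Ccl2, Ccl5, Ccl7, Cxcl1, Cxcl10, Cxcl12, Cxcl16 and Cx3cl1. For Ccl9 the share was 2.0% and for Cxcl5 it was 0.871%. Genes on the opposite strand overlap Ccl2 (Gm17268), Cxcl10 (Art3) and Cxcl16 (Zmynd15), and all of these had an FPKM of 0.173 or less. Whether the authors' FPKM used the strand is not given in the sources used here.

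Most of the remaining chemokine family did not reach 1 FPKM. Of 28 other ligands, 16 were listed at 0 in both groups and 6 were expressed. Cxcl3, a Cxcr2 ligand of the same cluster as Cxcl1, was the most abundant of them at 77.9 in Control and 69.4 in LIPUS (log2 ratio -0.16). Past the limit were 0 lower and 2 higher, beside 6.79% and 6.7% of all expressed genes. The 2 were Ccl25 with 1.60 in Control and 3.24 in LIPUS (0.71) and Cxcl9 with 0.277 and 1.14 (0.74), both at low levels. Ccl25 shares its genomic interval in the table with Elavl1. The median of the 6 was 0.16. Only Cxcl3 carried the status OK, and the other genes expressed here, Ccl25 and Cxcl9 among them, carried NOTEST at low levels. Cxcl9, an interferon-inducible Cxcr3 ligand like Cxcl10, carried NOTEST and passed the floor only through the group in which it was higher, so no contrast with Cxcl10 is drawn.

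The signalling receptors of the listed ligands that are reported here were listed at or near 0, where a 0 can again be a failed estimate. Ccr1, Ccr2, Cxcr3 and Cxcr4 were listed at 0 in both groups. Cxcr2 had an FPKM of 0.0756, Cxcr6 of 0.126 and Cx3cr1 of 0.0728 in LIPUS, and all 3 were listed at 0 in Control. Of 22 receptor genes, 2 were expressed, and both are atypical receptors that take up chemokines without signalling through G proteins. Ackr3, which takes up Cxcl12, stood at 123.1 in Control and 151.9 in LIPUS (log2 ratio 0.30), and Ackr2, which takes up CC ligands, at 1.46 and 1.86 (0.22). None passed the limit.

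Of 11 genes that release, trim or retain chemokines, 9 were expressed. Adam10, a protease that sheds Cx3cl1 and Cxcl16, had an FPKM of 39.6 in Control and 32.4 in LIPUS (log2 ratio -0.28), and its relative Adam17 had 13.3 and 12.5 (-0.08). Dpp4, which trims the N terminus of several chemokines, was listed at 0 in both groups. The most abundant genes of this list were the heparan sulfate carriers Sdc1, with 603.9 and 588.7 (-0.04), and Sdc4, with 259.0 and 338.3 (0.38). Of these 9 genes, 1 was higher past the limit and 0 were lower, near the 6.7% and 6.79% of all expressed genes. The higher gene was Tnfaip6, a hyaluronan-binding protein that also binds chemokines, with 20.4 in Control and 32.3 in LIPUS (0.63). The median of the list was 0.24.

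The interferon list held 2 genes that were lower past the limit and 0 that were higher, among 10 expressed, beside 6.79% and 6.7% of all expressed genes. Stat2, a subunit of the complex that binds the ISRE, had an FPKM of 23.2 in Control and 12.6 in LIPUS (log2 ratio -0.83). Irf9, the DNA-binding subunit of that complex, differed little, with 24.7 and 23.1 (-0.09). Irf5 had 29.5 and 17.2 (-0.75), and Irf7, the most abundant of the list, 124.0 and 84.0 (-0.56). Irf1 had 18.6 and 12.5 (-0.54). Irf3 went the other way, with 19.8 and 28.5 (0.51). Irf7, Irf1 and Irf3 all fell short of the limit. The receptor chains Ifnar1, Ifnar2, Ifngr1 and Ifngr2 had log2 ratios from -0.05 to 0.26. The median of the list was -0.07.

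Of 10 NF-kB regulators, all of them expressed, 1 was lower past the limit and 0 were higher, a share near the 6.79% of all expressed genes that were lower. The subunits Nfkb1 (28.6 FPKM in both groups) and Rela (34.9 in Control and 39.1 in LIPUS) had log2 ratios of -0.00135 and 0.16. Nfkbiz, an atypical inhibitor family member that assists transcription of a subset of NF-kB targets, had 27.3 in Control and 17.3 in LIPUS (-0.63). The feedback inhibitor Nfkbia was in the other direction, with 20.8 and 30.5 (0.53), short of the limit. The median of the list was 0.02.

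The largest ratio among the regulators belonged to an mRNA decay factor. Zfp36 (tristetraprolin), which binds AU-rich elements and promotes decay, had an FPKM of 10.8 in Control and 23.3 in LIPUS (log2 ratio 1.04). Zc3h12a (Regnase-1), an endoribonuclease that cleaves inflammatory transcripts, had 16.4 and 28.3 (0.75). Zfp36l1, a relative of Zfp36, was lower, with 38.5 and 24.3 (-0.64), and Zfp36l2, the most abundant of the list, had 126.1 and 113.9 (-0.15), followed by Elavl1, which stabilises AU-rich transcripts, with 40.9 and 48.1 (0.23). Thus 2 of 7 genes were higher past the limit and 1 was lower, beside 6.7% and 6.79% of all expressed genes, with a median of 0.20. In order of pentamers per kb, Cxcl1 (11.8) had a log2 ratio of -0.33, Ccl7 (4.6) of -1.01, Cxcl5 (4.5) of 0.33 and Ccl2 (3.6) of -0.83. They were followed by Cxcl10 (2.7) with -0.49, Ccl9 (2.0) with -0.58, Cxcl16 (1.4) with -0.28 and Cx3cl1 (0.5) with 0.07. Ccl5, with no pentamer, had -1.29. The part of these regulators in the chemokine levels was not tested.

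**Figure D4:**
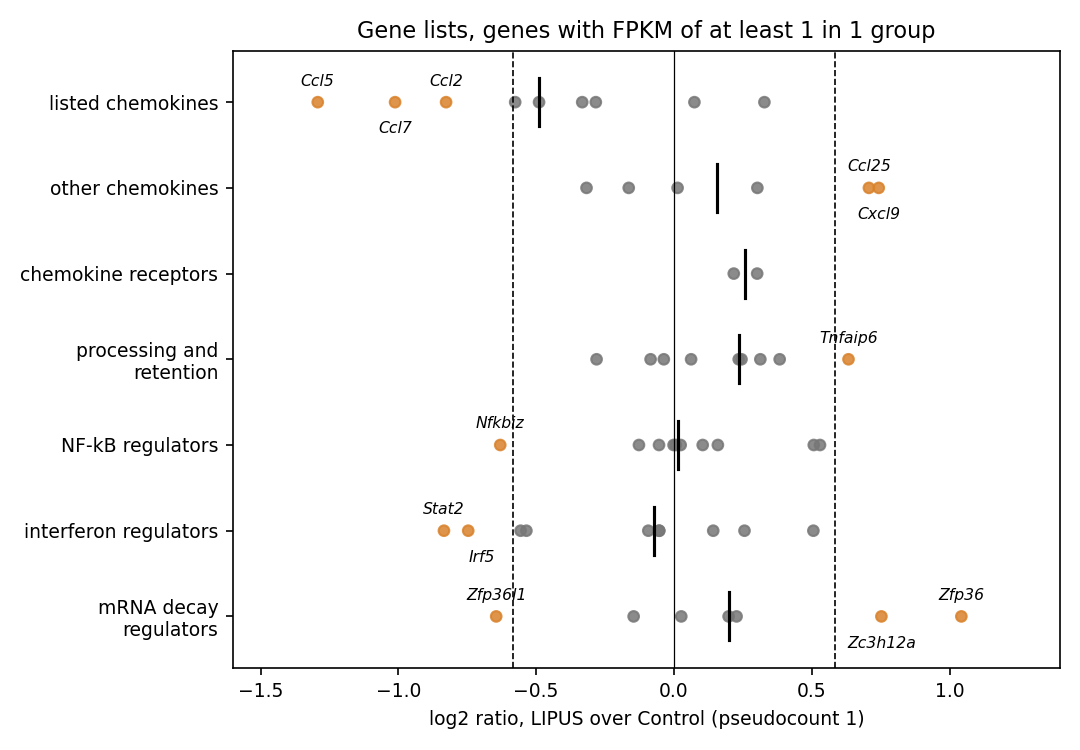
Log2 ratio of LIPUS over Control (x axis, pseudocount 1) for the expressed genes of each list (y axis). Each point is 1 gene, orange and named where past 1.5-fold (dashed lines), and black bars are list medians. The median of the listed chemokines is -0.49, and those of the other lists drawn, which leave out the marker lists, lie between -0.07 and 0.26.

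Markers of the labelled cell line and of other cells were read beside these results. Of 12 osteocyte and osteoblast markers, 8 were expressed, with a median of -0.10. Past the limit 2 were lower and 2 higher, beside 6.79% and 6.7% of all expressed genes. By the mean of both groups, the most abundant were the collagen gene Col1a1 (891.5 FPKM in Control and 731.2 in LIPUS) and the osteocyte-associated Pdpn (295.4 and 401.7), although in Control the collagen gene Col1a2 (333.7 and 302.7) stood above Pdpn. Gja1, a gap junction protein gene, had 176.5 and 169.7. Sost, Mepe and Fgf23, genes of mature osteocytes, were listed at 0 in both groups. The lower genes were Alpl, an alkaline phosphatase of osteoblasts, with 293.0 in Control and 189.7 in LIPUS (log2 ratio -0.63), and the osteoblast transcription factor Runx2, with 24.4 and 14.8 (-0.69). The higher genes were Dmp1, a matrix protein of osteocytes, with 3.04 and 7.65 (1.10), and the osteocalcin gene Bglap, which was listed at 0 in Control and had 1.58 in LIPUS. Bglap carried NOTEST and passed the floor only through LIPUS, so its place in this count follows from the floor. Of 10 macrophage and leukocyte markers, 5 were above 0 and 3 were expressed, and the defining genes Ptprc, Adgre1 and Itgam were listed at 0 in both groups. The list summed to 15.8 FPKM in Control and 13.5 in LIPUS. The most abundant of them, Cd14, had 8.19 in Control and 10.6 in LIPUS (log2 ratio 0.34). Cd68 had 5.32 in Control and 1.72 in LIPUS (log2 ratio -1.21) and Lyz2 had 2.01 and 0.189 (-1.34). These 2 were lower, and Cd14 was not, in the group in which Ccl2, Ccl5 and Ccl7 were lower. Thus 2 of the 3 expressed markers were lower past the limit and 0 were higher, beside 6.79% and 6.7% of all expressed genes. Cd68 and Lyz2 both carried NOTEST, and Lyz2 passed the floor only through Control, the group in which it was higher. The part of such cells in the chemokine results was not tested. Of the endothelial markers 1 of 6 and of the epithelial markers 1 of 5 were above 0, all under an FPKM of 1. In RNA of whole cultures, fewer cells making a transcript and less transcript per cell cannot be told apart.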

How the data were processed

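Sequencing covered 3 LIPUS and 3 Control samples of MLO-Y4 cells, grouped by their labels, as stranded mRNA libraries with paired-end 100-base reads. According to the methods, Trimmomatic 0.36, TopHat2 2.1.0 and Bowtie2 2.2.6.0 were used for trimming and for alignment to GRCm38. The submitters' processing notes name Cufflinks 2.1.1, whereas the methods name a later version. The authors deposited 1 FPKM per group in a Cuffdiff gene table, with no value or count for single samples. The methods state 20000000 reads per sample, and the mapped depth of each library is not given in the sources used here. The table's fold changes, test statistics, p-values and q-values were not used, and only the status was read.

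Log2 ratios with a pseudocount of 1, an FPKM floor of 1 and a limit of 1.5-fold were computed over all rows with Python 3.11.15, numpy 2.4.6 and pandas 2.3.3, and the step was tested on simulated data. A symbol on several rows took its most abundant row. The genes named are the members, their receptors and, of each list with expressed genes, those past the limit and the 2 most abundant. Adam10, Adam17, Dpp4, Nfkbia, Gja1, Col1a2, Irf1, Irf3, the markers at 0, Irf9, the interferon receptor chains and overlapping genes were named after their values were seen. A gene of the receptor list and a gene of the interferon list are not reported here and were left out of the list counts. The members and lists were chosen with earlier results of these data known. Promoter windows came from RefSeq (GRCm38.p6), and gene models from GENCODE M21, with 1 protein-coding transcript per gene, that of the longest coding sequence. Alternatives were other pseudocounts, floors, scalings and limits. Without values per sample, no test between groups was run.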

Additional observations from a re-analysis of the deposited data

How the results depend on the processing

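The signs of the 9 chemokine log2 ratios were the same under every pseudocount, floor and scaling tried, except that Cxcl16 had no value with a floor of 10 FPKM or with status OK only. Ccl5 ranged from -1.34 to -1.29, Ccl7 from -1.12 to -1.01 and Ccl2 from -0.87 to -0.83, all past 1.5-fold. Ccl9 passed the limit with scaling to equal sums (-0.62) and Cxcl16 without a pseudocount (-0.63). In the main setting the chemokines past the limit numbered 3 lower and 0 higher, beside 6.79% and 6.7% of all expressed genes. With equal sums, or without a pseudocount, 4 were lower. At the laxer limit of 0.32 on the log2 scale, 6 were lower and 1 was higher, beside 16.3% and 15.8%. At 2-fold, 2 were lower and 0 higher, beside 2.08% and 2.16%. With all 38 named chemokines in place of the 10, an alternative chosen after seeing the data, 15 were expressed. Of these, 3 were lower and 2 higher past the limit, beside 6.79% and 6.7% of all expressed genes. Cxcl9, 1 of the 2 higher genes, passed the floor only through LIPUS. The median was -0.28, the value of Cxcl16, which passed the floor only through Control. The other lists, markers not counted, held 9 genes past the limit, 4 lower and 5 higher. They held 1 at 2-fold and 15 at the laxer limit, and the shares of all expressed genes at each limit are those above. The changes with the fold limit follow from its construction. With a floor of 10 FPKM or status OK only, 3 genes of the other lists were higher past the limit in place of 5. No paired analysis was possible because the table carries no value of a single sample, and for the same reason no replicate could be left out. Without mapped read counts, no counting limit can be given for Cxcl16 and Cxcl12.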
